A study of Mus musculus with 8 samples.

Results

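The genes for the cathepsins, the lysosome-associated membrane proteins (LAMPs) and the vacuolar proton pump were followed in infarcted mouse hearts with and without DAPA. Members were taken by symbol: Cts followed by 1 letter, Lamp followed by 1 digit, and all symbols that begin with Atp6v or Atp6ap. This gave 48 of the 22173 genes in the deposited table: 18 cathepsins, 4 LAMP genes and 26 proton pump genes, the latter made up of 14 genes with symbols of the V1 sector, 9 of the V0 sector and 3 accessory genes. The C57BL/6J mice of both groups had the left anterior descending coronary artery ligated. 4 libraries came from the vehicle group and 4 from mice given DAPA (the usual short form of dapagliflozin, a blocker of the renal glucose transporter SGLT2), whose daily dose was 1 mg/kg over 4 weeks from the ligation. No unoperated group was analysed here. The labels give no age, sex, part of the heart sampled or statement on pooling, so p-values measure only the spread between these libraries.

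Lysosomes break down proteins, lipids and whole organelles. Cathepsins are their proteases and work best at acid pH. The proton pump, the V-ATPase, makes that acid: its V1 sector in the cytosol splits ATP and turns a rotor, and its V0 sector in the membrane carries the protons. Lamp1 and Lamp2 coat the inner face of the lysosomal membrane. In cardiac muscle, which renews its cells very slowly, lysosomes end the path of autophagy, and inherited loss of LAMP2 in humans causes a cardiomyopathy. In the infarct scar, macrophages and fibroblasts are further sources of cathepsins.

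Many lysosomal genes are driven by TFEB and its relatives, which bind a palindrome known as the CLEAR element in promoters. RefSeq promoter windows (GRCm38.p6, 250 bases before to 50 after the transcription start) were at hand for 37 of the 48 members. The letters TCACGTG, the core of that element, were searched on both strands, its reverse being CACGTGA, and these overlap in TCACGTGA. They were found in 7 of the 37 genes (18.92%), against 4.29% of the 27025 genes with a window, 7.08% of the 9192 tested genes with a window and 19.28% of 83 other genes that the deposited table annotates to the lysosome pathway. TCACGTGA itself was found in 5 of the 37 (13.51%), against 2.28% of the tested genes and 8.43% of the 83 other lysosome genes. The full palindrome adds a G before TCACGTGA and a C after it, and was found in 0 of the 37. Its share was 0.84% of the tested genes, 0.37% of all genes with a window and 2.41% of the 83. With shares this low, 0 of 37 cannot set the members apart from other genes. The 7 with the core were Atp6v0b, Atp6v0d1, Atp6v0e, Atp6v1a, Ctsa, Ctsd and Lamp1. None of them differed between the groups at the threshold used below, which 18.4% of all genes tested passed. Only 5 members that passed it had a window, too few to relate a match to a difference. 4 stretches that hold the core are shown, 1 from each kind of protein (protease, membrane protein, V0 and V1 subunit). They are followed by stretches of 2 genes that fell with DAPA and hold no match. All stretches cover bases -140 to -1 from the start, except that of Atp6v1a, which covers -160 to -21. Each reads 5′ to 3′ on the gene's strand, and capitals mark TCACGTG or CACGTGA.
Ctsd, chr7:142387828-142387967, minus strand: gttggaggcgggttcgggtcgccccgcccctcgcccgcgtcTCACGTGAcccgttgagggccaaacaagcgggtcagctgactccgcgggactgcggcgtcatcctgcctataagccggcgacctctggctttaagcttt
Lamp1, chr8:13159021-13159160, plus strand: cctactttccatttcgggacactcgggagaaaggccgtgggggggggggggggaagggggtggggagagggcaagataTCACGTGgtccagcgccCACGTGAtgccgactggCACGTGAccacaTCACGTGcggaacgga
Atp6v0b, chr4:117887330-117887469, minus strand: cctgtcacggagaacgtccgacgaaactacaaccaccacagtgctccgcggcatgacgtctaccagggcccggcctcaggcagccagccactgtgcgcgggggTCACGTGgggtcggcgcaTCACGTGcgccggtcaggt
Atp6v1a, chr16:44139280-44139419, minus strand: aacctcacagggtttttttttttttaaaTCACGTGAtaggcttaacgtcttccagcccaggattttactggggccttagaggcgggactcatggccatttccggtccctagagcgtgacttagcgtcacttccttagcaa
Ctsz, chr2:174439040-174439179, minus strand: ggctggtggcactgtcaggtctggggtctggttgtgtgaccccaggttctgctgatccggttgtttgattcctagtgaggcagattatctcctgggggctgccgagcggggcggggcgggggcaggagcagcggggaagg
Atp6v0a4, chr6:38124587-38124726, minus strand: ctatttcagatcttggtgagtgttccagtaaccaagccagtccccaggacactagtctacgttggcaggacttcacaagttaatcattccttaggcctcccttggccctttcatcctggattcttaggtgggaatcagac
In the Lamp1 stretch the core occurs 4 times within the last 62 bases before the start, and in the Atp6v0b stretch it begins 37 and 19 bases before the start. A match is a description of these letters and shows no binding.

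The libraries were of like depth, with 24939013 to 26768206 reads behind the values of each. Heart muscle transcripts were abundant in both groups, Myh6 at 2395.9 ± 153 FPKM in vehicle and 2360.8 ± 73.7 in DAPA libraries (FPKM, fragments scaled for transcript length and library depth; mean ± SD, n = 4 each here and below). Of 12 ventricular and general heart muscle markers, Myh6 among them, 1 was higher with DAPA and 2 lower, with summed FPKM of 33322.7 to 33896.6 in vehicle and 30779.7 to 32819.8 in DAPA libraries. The groups differed in other tissue markers too. Of 12 atrial markers 11 were higher with DAPA, their summed FPKM being 8126.9 to 9069.0 in vehicle and 12973.2 to 13684.9 in DAPA libraries. Of 9 tested adipocyte markers all 9 were lower, with sums of 1626.4 to 1854.8 and 1153.3 to 1221.1. Endothelial markers were higher in 7 and lower in 2 of 10, yet their summed FPKM was lower, at 1951.9 to 2061.2 and 1793.3 to 1833.3. Fabp4, 1 of the 2 lower endothelial markers, is also on the adipocyte list. Fibroblast markers were higher in 2 and lower in 5 of 12, with overlapping sums of 3146.1 to 3207.8 and 3188.0 to 3414.7. Epicardial markers were higher in 5 of 8, with sums of 20.9 to 36.2 and 42.0 to 56.6. The part of these differences in the results below was not tested, and in whole tissue fewer cells of a type and less RNA per cell cannot be told apart.

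The lysosomal members differed between vehicle and DAPA hearts about as often as all genes tested. With limma-trend on log2(FPKM + 1), 32 of the 48 members reached a mean of 1 FPKM in a group and were tested, and 3 rose and 3 fell with DAPA at a Benjamini-Hochberg adjusted p below 0.05 over 11496 genes, of which 9.62% rose and 8.75% fell. That is 18.8% of those tested, where 18.4% of all genes tested passed, so the share lay at the background. The groups of 4 libraries did not overlap in 7 of the 32 (21.9%), against 22.1% of all genes tested; 5 of the 7 were higher with DAPA (12.1% of all genes) and 2 lower (9.99%). The differences were small, from -0.44 to 0.27 on the log2 scale, with a median of 0.02 (0.01 over all genes tested). The 95% interval of the difference lay within a 1.25-fold change of FPKM + 1 either way for 28 of the 32 members (87.5%), against 80.0% of all genes tested. For low genes this bound allows a larger change of FPKM itself. Summed FPKM over all 48 members came to 2953.7 ± 22.3 in vehicle and 2973.5 ± 17.3 in DAPA libraries. Ctsd, Ctsb and Lamp1 weighed most in this sum, with means of 907, 381 and 329.5 FPKM over the 8 libraries.

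**Figure D1:**
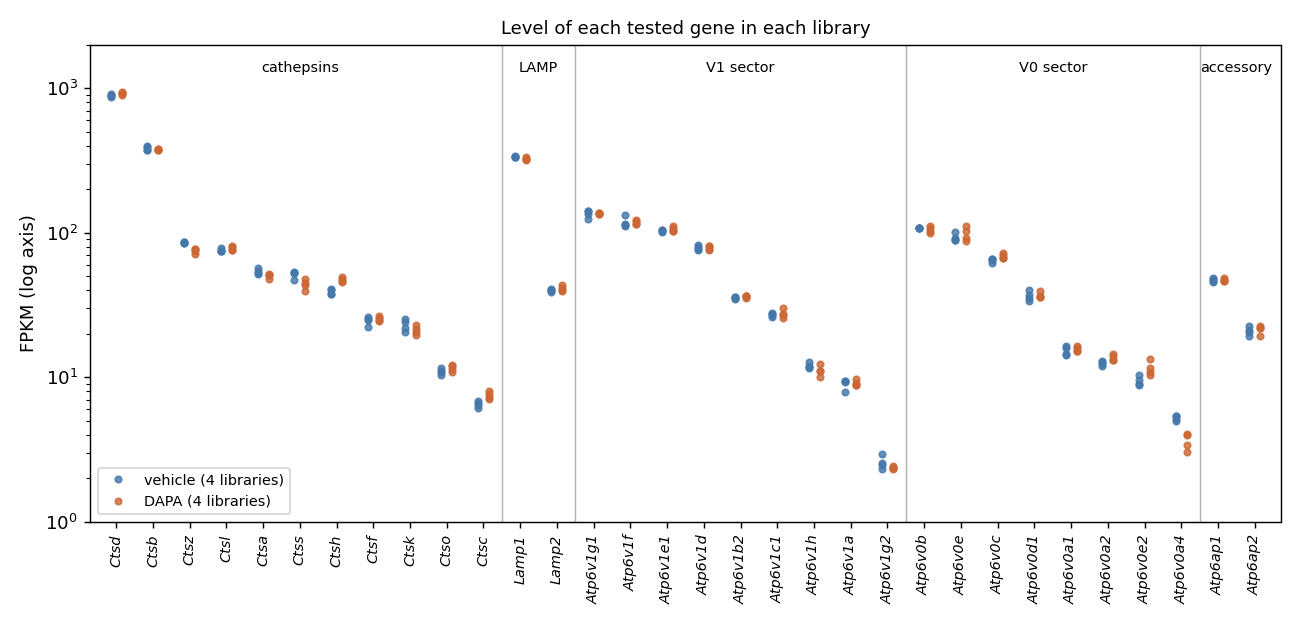
FPKM (log axis) of the 32 tested genes in each of the 4 vehicle (blue) and 4 DAPA (orange) libraries, in order of mean level within each kind of protein. Levels span from Ctsd, with a mean of 907 FPKM, to Atp6v1g2, with a mean of 2.46, and the groups lie on top of each other for most genes.

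Of the 11 tested cathepsins 2 rose, 2 fell and 7 did not pass (4 of 11, against 18.4% of all genes tested). Groups did not overlap in 3 of the 11 (27.3%), against 22.1% of all genes tested. The 2 that rose, Ctsh and Ctsc, and the 2 that fell, Ctsz and Ctss, each made up at most 5.28% of summed cathepsin FPKM in any library, and the sum over the 18 cathepsin genes was 1647.8 ± 21.7 FPKM in vehicle and 1659.8 ± 7.18 in DAPA libraries.

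The cathepsin pool was made up mostly of Ctsd, the aspartic protease that is the main endopeptidase of lysosomes. Ctsd (NCBI Gene 13033) measured 902, 869.6, 917 and 886 FPKM in vehicle libraries and 903, 936, 924 and 922 in DAPA libraries. The groups overlapped, with a log2 difference of 0.04 and a 95% interval of -0.01 to 0.10 (limma adjusted p = 0.27). Ctsd alone held 52.8% to 56.2% of summed cathepsin FPKM over the 8 libraries. Ctsb, a cysteine protease that clips dipeptides from the end of proteins and also cuts within them, held 22.5% to 24.0%, at 383 ± 10.1 and 378 ± 4.97 FPKM (adjusted p = 0.66). Ctsl, a cysteine endopeptidase whose loss in mice leads to dilated cardiomyopathy, stood at 75.7 ± 1.80 and 78.1 ± 2.72 (adjusted p = 0.4). None of these 3 passed, and each had an interval within a 1.25-fold change. Ctsz, which lay between Ctsb and Ctsl in mean level, did pass.

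Ctsh (13036), a cysteine aminopeptidase, showed the clearest rise. Its values were 37.5, 40.7, 40.4 and 37.7 FPKM in vehicle libraries and 49.0, 47.4, 45.5 and 46.0 in DAPA libraries. Every DAPA library lay above every vehicle library. The mean was 20.2% higher with DAPA (log2 change 0.26, SE 0.039, limma adjusted p = 0.00045). The call held in all 17 alternative settings, with adjusted p from 1.9e-05 to 0.0032.

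Ctsc (13032), the dipeptidyl peptidase that activates the granule proteases of neutrophils, mast cells and cytotoxic lymphocytes, rose from a lower level. It measured 6.15, 6.79, 6.59 and 6.40 FPKM in vehicle and 8.03, 7.09, 7.69 and 7.24 in DAPA libraries. The groups did not overlap, and the ratio of means was 1.16 (log2 change 0.19, SE 0.053, adjusted p = 0.029). This call rested on the full set of libraries: without vehicle library 1, vehicle library 4, DAPA library 1 or DAPA library 3 it was lost (adjusted p between 0.066 and 0.083). It held in 12 of 17 alternatives, with adjusted p from 0.00064 to 0.083 over all 17. The remaining loss is given with the replicate numbers below. Markers of cells in which Ctsc is known to act were low in both groups. Neutrophil markers summed to 8.13 to 10.1 FPKM over 9 genes in vehicle and 3.99 to 6.61 in DAPA libraries, mast cell markers to 4.45 to 5.36 and 4.24 to 6.86 over 7 genes, and NK and T cell markers to 2.60 to 4.51 and 3.42 to 4.10 over 11 genes. None of the 7 tested among these 3 lists passed the limma threshold, against 18.4% of all genes tested. The 3 neutrophil genes among them, S100a8, S100a9 and Csf3r, had lower means with DAPA, with log2 differences of -0.63, -0.44 and -0.17. Their unadjusted limma p were 0.018, 0.028 and 0.031, and the other 4 had none below 0.05. No gene of these lists was at 0 in all libraries. The part of these cells in the rise of Ctsc was not tested.

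Ctsz (64138), a carboxypeptidase also called cathepsin X and abundant in myeloid cells, fell. It measured 84.3, 86.2, 84.3 and 85.9 FPKM in vehicle and 76.6, 75.0, 76.9 and 70.9 in DAPA libraries. The vehicle libraries were tightly grouped, and all DAPA libraries lay below them. The mean was 1.14-fold lower with DAPA (log2 change -0.18, SE 0.032, adjusted p = 0.0014), and the call held in all 17 alternatives, with adjusted p from 0.00027 to 0.011.

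Ctss (13040), a cysteine protease that works at neutral pH and trims the invariant chain of MHC class II in antigen-presenting cells, fell by a like amount. Its values were 46.8, 53.4, 52.5 and 52.6 FPKM in vehicle and 44.6, 39.5, 43.2 and 48.0 in DAPA libraries. The groups overlapped, since vehicle library 1 lay below DAPA library 4. The mean was 1.17-fold lower with DAPA (log2 change -0.22, SE 0.057, adjusted p = 0.015). The call held without each library in turn (adjusted p up to 0.044) and was lost with no filter on low values (0.055), the highest of 17 alternatives that went down to 0.00086. Macrophage markers went both ways in these libraries, with 6 of 17 higher and 2 lower, where 18.4% of all genes tested passed. Their summed FPKM was 1035.3 to 1237.1 in vehicle and 1103.2 to 1202.6 in DAPA libraries. Csf1r, which encodes the receptor for macrophage colony-stimulating factor, rose from 26.4 ± 0.726 to 30.6 ± 0.876, while Fcgr1, the high-affinity Fc receptor, fell from 4.99 ± 0.55 to 3.68 ± 0.222 (adjusted p = 0.0017 and 0.0037). The B and plasma cell markers summed to 11.8 to 19.2 and 5.0 to 7.12, with 2 of 4 tested lower. These were Jchain, at 8.45 ± 1.72 and 1.57 ± 0.480, and Cd79b, at 2.36 ± 0.864 and 1.18 ± 0.277, while Cd79a and Mzb1 did not pass. The part of these cells in the fall of Ctss was not tested.

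The other cathepsins did not pass. Ctsk, the collagen-cutting cathepsin of osteoclasts and fibroblasts, was at 23.0 ± 2.13 and 21.2 ± 1.42 FPKM (log2 difference -0.11, 95% interval -0.25 to 0.03), beside 12 fibroblast markers of which 5 were lower and 2 higher. The part of fibroblasts in this value was not tested. Ctsa, a serine carboxypeptidase that also shields β-galactosidase and neuraminidase, was at 54.0 ± 2.29 and 50.3 ± 1.95 (log2 difference -0.10, adjusted p = 0.11). It passed in limma voom on the reads behind the FPKM values (adjusted p = 0.042), the lowest over its alternatives, which went up to 0.26. Ctsf was at 24.6 ± 1.70 and 25.4 ± 0.795, and Ctso at 11 ± 0.51 and 11.6 ± 0.519, with 95% intervals of -0.06 to 0.15 and -0.03 to 0.18.

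The remaining 7 cathepsin genes were under the filter and were not tested. The 4 that are known from the rodent placenta, Ctsj, Ctsm, Ctsq and Ctsr, had no read in any library, which allows up to 3 reads over the 8 libraries (counting error only). Ctsg, the serine protease of neutrophil granules, had 1 read in all. Ctse, an aspartic protease of endosomes, had 72 reads and 0.0186 to 0.489 FPKM. Ctsw, made by NK cells and cytotoxic T cells, had 160 reads and 0.128 to 0.796 FPKM.

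**Figure D2:**
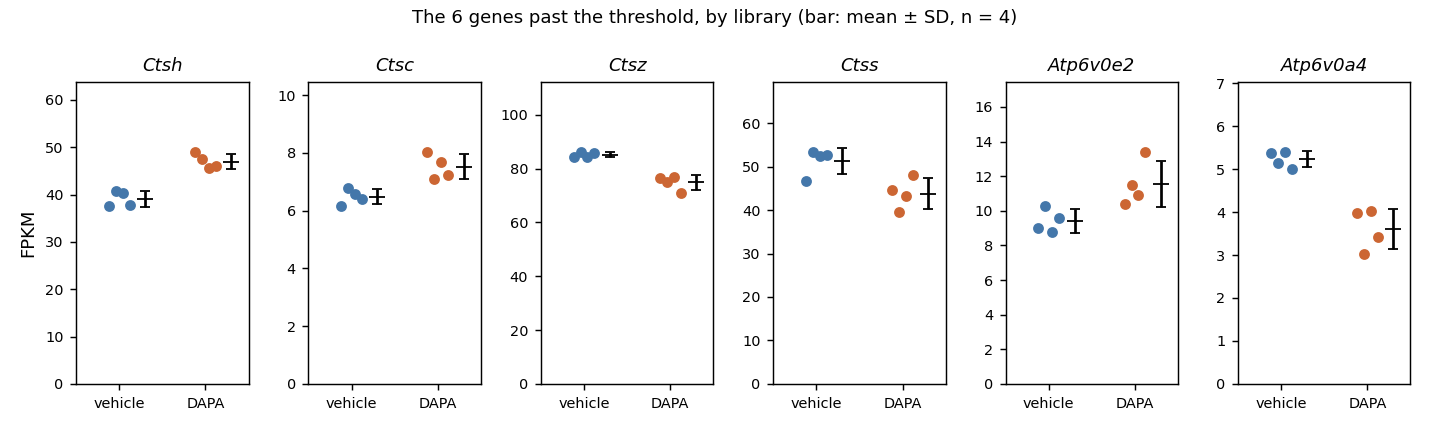
FPKM of the 6 genes that passed the threshold, in each of the 4 vehicle (blue) and 4 DAPA (orange) libraries, with the mean ± SD beside the points and each axis starting at 0. Ctsh, Ctsc, Ctsz, Atp6v0e2 and Atp6v0a4 show no overlap between the groups, and Ctss overlaps through the lowest vehicle library (46.8) and the highest DAPA library (48.0).

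Neither of the 2 LAMP genes that were tested passed the threshold, against 18.4% of all genes tested. Lamp1 (16783) measured 338, 333, 334 and 332 FPKM in vehicle and 333, 320.2, 325 and 322 in DAPA libraries. The ranges overlapped, with DAPA libraries 2 to 4 below all vehicle libraries. The log2 difference was -0.04, with a 95% interval of -0.09 to 0.01 (adjusted p = 0.29). Lamp2 (16784), the form needed for fusion of autophagosomes with lysosomes in the heart, was at 40.0 ± 0.891 and 41.1 ± 1.48 (log2 difference 0.04, interval -0.04 to 0.12). Neither had an unadjusted p below 0.05, and neither passed with limma voom. Per unit of length, Lamp1 made up 88.5% to 89.7% of LAMP transcripts in the 8 libraries. Lamp3, a protein of mature dendritic cells and lung, had 15 reads in all, and Lamp5, of neurons and plasmacytoid dendritic cells, had 1.

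The V1 sector, the part of the pump that splits ATP, held no call. None of its 9 tested genes passed with limma-trend, against 18.4% of all genes tested. With limma voom 0 of 9 passed, where 1387 of the 11496 genes tested were higher and 1188 lower. At an unadjusted p below 0.05 there were 0 of 9, a count for which no share over all genes is given. All 9 intervals lay between -0.23 and 0.15 on the log2 scale. The most abundant was Atp6v1g1 (66290), for a stalk subunit, at 125, 141, 134 and 140.2 FPKM in vehicle and 136, 136, 134 and 134 in DAPA libraries. The DAPA libraries fell inside the vehicle range, with a log2 difference of 0.00 (95% interval -0.08 to 0.08).

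The catalytic head of V1 is a ring of A and B subunits in equal number. Atp6v1a, for A, was at 8.97 ± 0.762 and 9.09 ± 0.438 FPKM, and Atp6v1b2, for the widespread form of B, at 35.5 ± 0.474 and 36.2 ± 0.678. Their transcripts were thus unequal per unit of length in both groups. The rotor genes Atp6v1d and Atp6v1f stood at 78.5 ± 2.81 and 79.1 ± 2.65, and at 117 ± 9.95 and 118 ± 3.79. The outer stalks hold the head still while the rotor turns. Atp6v1e1 was at 102 ± 1.64 and 107 ± 4.39, Atp6v1c1, which joins V1 to V0 in a reversible way, at 27.1 ± 0.627 and 27.5 ± 1.83, and the regulatory subunit gene Atp6v1h at 12 ± 0.486 and 11.1 ± 0.921. Atp6v1g2, a form typical of brain, was low, at 2.56 ± 0.264 and 2.36 ± 0.0355.

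Forms of V1 subunits known from kidney, testis or other epithelia were nearly missing. Atp6v1b1 and Atp6v1g3, of acid-secreting kidney cells, had no read in any library. Atp6v1fnb had none either, but its full name is Atp6v1f neighbor and only its symbol places it among the V1 genes. Atp6v1c2 had 1 read and Atp6v1e2 had 6. The genes Atp6v1b2, Atp6v1c1, Atp6v1e1 and Atp6v1g1 therefore supplied at least 98.0% of the transcripts for their subunits, per unit of length, in each library.

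**Figure D3:**
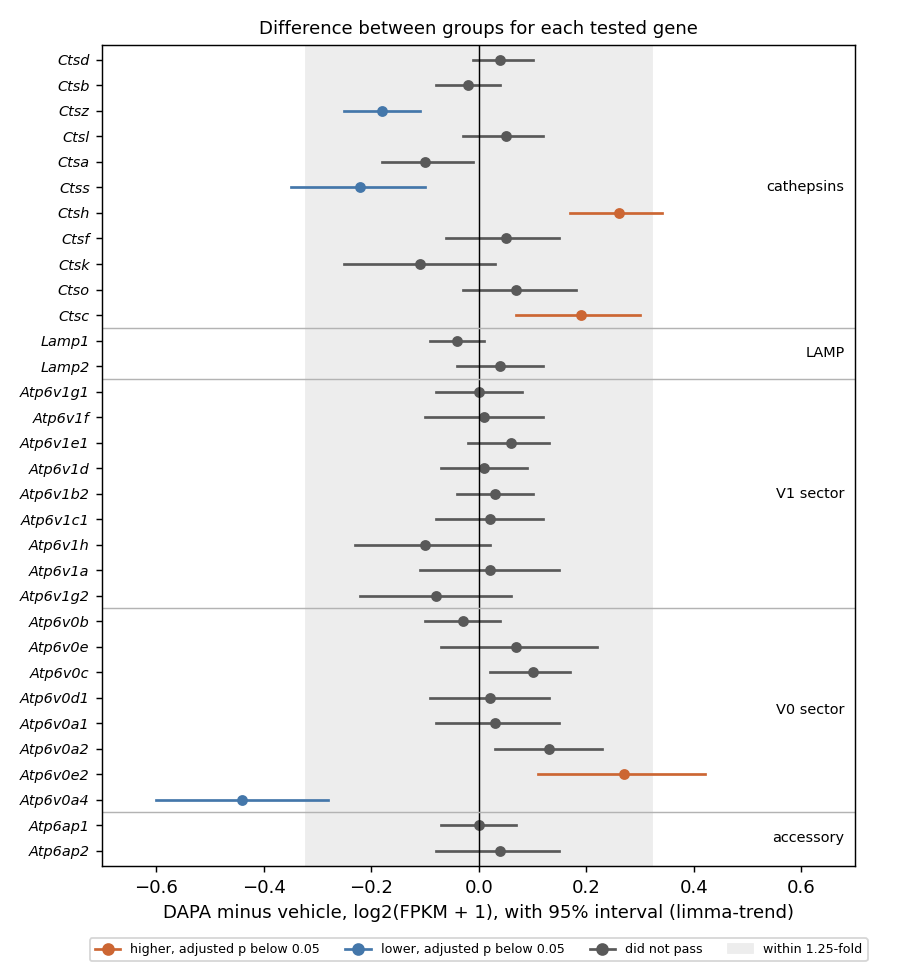
Difference between DAPA and vehicle in log2(FPKM + 1) for the 32 tested genes, with 95% intervals from limma-trend; orange and blue mark genes higher and lower at adjusted p below 0.05, and the grey band marks a 1.25-fold change either way. The intervals of all 9 V1 genes lie inside the band, while those of Ctss, Ctsh, Atp6v0e2 and Atp6v0a4 reach beyond it.

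Among the members, which leave out the V0 gene Tcirg1 (described below), the V0 sector held the pump's only calls, in opposite directions. Of its 8 tested members 1 rose, 1 fell and 6 did not pass (2 of 8, against 18.4% of all genes tested). Groups did not overlap in 4 of the 8, against 22.1% of all genes tested. Summed V0 levels were 344 ± 5.76 FPKM in vehicle and 354 ± 13.5 in DAPA libraries. The most abundant V0 gene, Atp6v0b (114143), for a subunit of the proton-carrying ring, gave 108, 108, 108 and 107 FPKM in vehicle and 111, 107 and 103 in DAPA libraries 1, 3 and 4, with DAPA library 2 the lowest of all. The DAPA libraries scattered around the tight vehicle group (log2 difference -0.03, 95% interval -0.10 to 0.04).

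Atp6v0a4 (140494) had the largest difference among the members. It encodes the form of the a subunit typical of acid-secreting cells in kidney and epididymis; the a subunit holds the channels by which protons enter and leave the ring. It measured 5.38, 5.15, 5.40 and 5.01 FPKM in vehicle and 3.97, 3.03, 4.02 and 3.41 in DAPA libraries. All DAPA libraries lay below all vehicle libraries. The mean was 1.45-fold lower with DAPA (log2 change -0.44, SE 0.073, adjusted p = 0.00086) on 267 to 460 reads per library. The call held in all 17 alternatives, with adjusted p from 2.8e-05 to 0.007. In GENCODE M21, exons of Atp6v0a4 overlap those of D630045J12Rik on the same strand and of Tmem213 on the other, so reads in the shared stretches are uncertain. D630045J12Rik was at 0.223 ± 0.0689 and 0.218 ± 0.0419 FPKM, and Tmem213 at 0 in all libraries.

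Atp6v0e2 (76252), for a small subunit of V0, rose. Its values were 9.0, 10.3, 8.77 and 9.56 FPKM in vehicle and 10.4, 11.5, 10.9 and 13.4 in DAPA libraries. The groups did not overlap, though DAPA library 1 was close to vehicle library 2. The ratio of means was 1.23 (log2 change 0.27, SE 0.072, adjusted p = 0.022). The call was lost without vehicle library 1, vehicle library 3 or DAPA library 4 (adjusted p 0.054, 0.061 and 0.053) and with no filter on low values (0.065), and went down to 0.012 elsewhere. The other gene for this subunit, Atp6v0e, was the more abundant, at 92.6 ± 5.62 and 97.9 ± 10.4. As a share of both, Atp6v0e2 made up a mean of 9.23% in vehicle and 10.7% in DAPA libraries, and these shares overlapped, the lowest (8.59%) and the highest (12.8%) both being in DAPA libraries.

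The a subunit has 4 genes, and their balance was compared with Tcirg1, the gene for the a3 form of osteoclasts and secretory lysosomes, which the symbol rule leaves out. Tcirg1 fell from 14.3 ± 0.561 to 12.2 ± 0.466 FPKM (log2 change -0.21, adjusted p = 0.0049). The widespread forms did not pass. Atp6v0a1 was at 15.3 ± 1.12 and 15.6 ± 0.558, and Atp6v0a2 at 12.5 ± 0.44 and 13.7 ± 0.646, the latter without overlap between groups (log2 difference 0.13, adjusted p = 0.076). Atp6v0a2 passed with limma voom (adjusted p = 0.034, within 0.034 to 0.2 over its alternatives). Of the summed FPKM of the 4 genes, Atp6v0a4 took 10.8% to 11.2% in vehicle and 6.85% to 8.88% in DAPA libraries, and Tcirg1 took 29.7% to 30.9% and 26.1% to 28.9%. Atp6v0a2 went from 25.7% to 27.2% in vehicle to 29.5% to 31.8% in DAPA libraries, and Atp6v0a1 from 30.9% to 33.4% to 33.3% to 35.6%. For Atp6v0a4, Tcirg1 and Atp6v0a2 these shares did not overlap between groups; they were not tested, since they combine genes already compared.

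**Figure D4:**
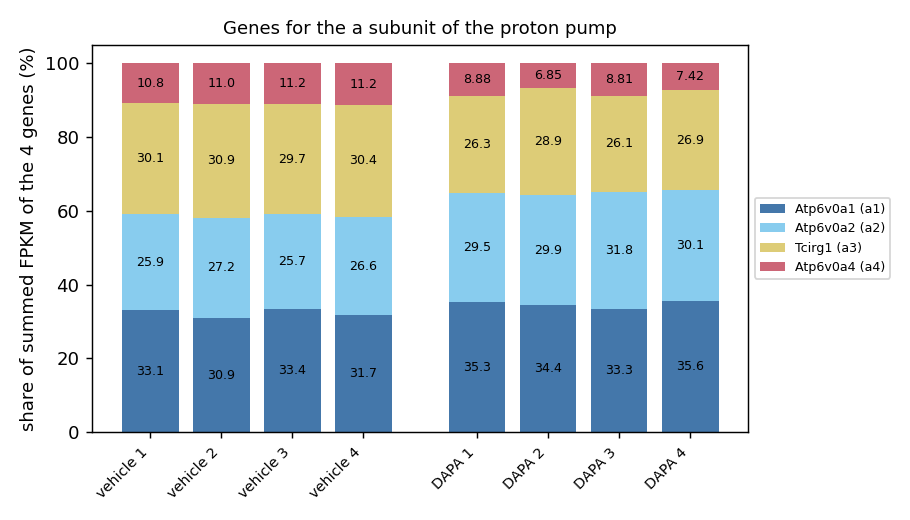
Share of each of the 4 genes for the a subunit of the proton pump in their summed FPKM (percent), for each vehicle and DAPA library. The share of Atp6v0a4 is 10.8% to 11.2% in vehicle and 6.85% to 8.88% in DAPA libraries.

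Osteoclast markers other than pump genes were few: 2 of 8 were tested, and the summed FPKM was 10.1 to 11.6 in vehicle and 7.72 to 9.68 in DAPA libraries. The list went both ways. Acp5, an acid phosphatase shared by osteoclasts and macrophages, fell from 4.51 ± 0.493 to 2.37 ± 0.441 (adjusted p = 0.0002), and Nfatc1, a transcription factor of osteoclast formation, was at 4.90 ± 0.225 and 5.27 ± 0.309 (adjusted p = 0.31). Of the untested markers, Mmp9 had 215 reads in vehicle and 40 in DAPA libraries, and Dcstamp 3 and 32. Atp6v0d2, the osteoclast form of the d subunit, had 378 reads in all and 0.217 to 0.624 FPKM, and was not tested. The part of these cells in the fall of Tcirg1 was not tested.

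The remaining V0 genes did not pass. Atp6v0c, for the main subunit of the ring, was at 64.4 ± 1.98 and 69.0 ± 2.55 FPKM without overlap between groups (log2 difference 0.10, adjusted p = 0.081). It passed after quantile normalization (adjusted p = 0.047), the lowest over its alternatives, which went up to 0.19. Atp6v0c has 2 pseudogenes named in the annotation, so its reads may be shared with them. Atp6v0d1, which joins the ring to the rotor, was at 36.5 ± 2.81 and 37.0 ± 1.60, and made up 98.3% to 99.4% of the transcripts for the d subunit.

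The accessory proteins help to assemble and sort the pump. Atp6ap1 (54411) measured 47.9, 45.9, 46.2 and 48.7 FPKM in vehicle and 48.9, 47.1, 46.6 and 46.3 in DAPA libraries. The groups covered nearly the same range (log2 difference 0.00, 95% interval -0.07 to 0.07). Atp6ap2, also known as the prorenin receptor, was at 20.9 ± 1.34 and 21.5 ± 1.38 (interval -0.08 to 0.15). Neither had an unadjusted p below 0.05 or passed with limma voom. Atp6ap1l had 48 reads in all and was not tested. Among 11 tested partners of the pump (Tcirg1, assembly factors and regulators), Tcirg1 fell and the others did not pass (1 of 11, against 18.4% of all genes tested). Next in order of p were Rogdi, of the complex that loads V1 onto V0, at 16.1 ± 1.16 and 14.5 ± 0.785, Oxr1 at 6.18 ± 0.337 and 6.94 ± 0.477, and Wdr7, of the same loading complex as Rogdi, at 3.70 ± 0.252 and 3.46 ± 0.221.

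Other lists of lysosomal genes were set beside the members. Of 43 tested hydrolases and their activators 2 rose and 5 fell (7 of 43, against 18.4% of all genes tested), with a median log2 difference of -0.01. Acp5, described above, was among those that fell. The acid lipase gene Lipa fell from 23.5 ± 1.19 to 20.3 ± 1.65 FPKM, and Npc2, which hands cholesterol out of the lysosome, from 51.7 ± 2.53 to 46.9 ± 1.37 (adjusted p = 0.023 and 0.028).

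Of 23 lysosomal membrane genes 3 rose and none fell (3 of 23, against 18.4% of all genes tested), though the median log2 difference was -0.05. Cd164, a sialomucin of endosomes and lysosomes, rose from 57.5 ± 0.608 to 64.2 ± 1.64 FPKM, Laptm4b from 29.9 ± 0.669 to 33.9 ± 1.40, and Tpcn1, an endolysosomal cation channel, from 11.1 ± 0.548 to 13.1 ± 1.02 (adjusted p = 0.0029, 0.0062 and 0.018). Tpcn2, its relative, was at 1.29 ± 0.209 and 0.932 ± 0.117 and did not pass (adjusted p = 0.063).

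Among the inhibitors of cysteine cathepsins, 4 of 15 were tested and 1 passed (against 18.4% of all genes tested). Cystatin C (Cst3), the main secreted inhibitor, was at 1885.1 ± 58.7 and 1920.7 ± 9.43 FPKM, more than any cathepsin, and did not pass (adjusted p = 0.54). The intracellular stefin Cstb was at 38.2 ± 3.55 and 36.0 ± 2.16, and Cst6 at 3.45 ± 0.335 and 3.33 ± 0.217. The gene that passed was Cst9, at 0.609 ± 0.344 and 1.17 ± 0.324 (adjusted p = 0.047). It entered the test only through its DAPA mean, rests on 44 and 84 reads, and its groups overlapped, so the call carries little weight.

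Of 16 tested genes that send hydrolases to the lysosome, 2 rose and 1 fell (3 of 16, against 18.4% of all genes tested, so the share lay at the background). Sort1, the sorting receptor sortilin, rose from 4.89 ± 0.666 to 7.71 ± 0.262 FPKM (log2 change 0.57, adjusted p = 0.00012). Igf2r, the large mannose 6-phosphate receptor, rose from 16.1 ± 0.691 to 19.0 ± 0.582, and the adaptor Gga2 fell by 0.17 on the log2 scale (adjusted p = 0.0028 and 0.019). Ap1g1, another adaptor subunit, was at 7.20 ± 0.364 and 8.09 ± 0.507 (adjusted p = 0.085). In the same libraries 11 of 12 atrial markers were higher, and the part of tissue makeup in these changes was not tested.

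Of 20 tested genes for TFEB and its relatives and for nutrient signalling at the lysosome, none rose and 2 fell (2 of 20, against 18.4% of all genes tested). These were Flcn and Fnip2, partners in the folliculin complex that controls TFEB, at 7.08 ± 0.546 and 6.10 ± 0.328, and at 1.53 ± 0.0876 and 1.18 ± 0.118 FPKM (adjusted p = 0.049 and 0.042). Fnip1 at 7.65 ± 0.216 and 6.83 ± 0.415, and Zkscan3, a repressor of lysosomal genes in human cells, at 22.6 ± 1.33 and 20.9 ± 0.487, did not pass (adjusted p = 0.073 and 0.12).

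The authors' deposited table gives its own ratio and q-value for 37 of the 48 members. By the authors' deposited table, q-values of 7 of these are below 0.05, where 17.4% of the 15527 genes with a q-value are. They are the 6 genes called here, in the same directions, and Ctsa. The ratios of DAPA over vehicle in the authors' deposited table are 0.68 for Atp6v0a4, 0.85 for Ctss, 0.87 for Ctsz, 0.93 for Ctsa, 1.15 for Ctsc, 1.19 for Ctsh and 1.22 for Atp6v0e2.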

How the data were processed

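RNA from heart tissue was made into stranded mRNA libraries (TruSeq) and sequenced as paired reads of 150 bases, which were trimmed with Trimmomatic, per the labels' protocols. HISAT2, SAMtools, StringTie, Cufflinks, HTSeq and DESeq are named without versions or roles in the submitters' processing notes, whose build, GRCh38, is human although the symbols are of mouse genes; files' coordinates are therefore not used. Per the deposited table, the authors computed FPKM per library, a fold change (ratio) and a q-value. The header names no unit; FPKM was inferred from the values and tools. The strand setting of the counting was not stated, so members whose exons overlap another gene on the other strand (Ctsa, Ctsb, Ctsz, Lamp1 and others) carry some doubt.

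FPKM within a gene were whole multiples of a fixed step, so the reads behind them were recovered as whole numbers for 100% of 17356 genes with a value above 0 (tolerance 0.0001 reads); a factor shared by all libraries of a gene would go unseen. Groups follow the treatment label. The test was limma-trend, run in R 4.3.3 with limma 3.58.1, on the log2 of FPKM plus a pseudocount of 1, for genes with mean FPKM of 1 or more in a group, all 8 libraries, group as the only term, threshold 0.05 after Benjamini-Hochberg adjustment over 11496 genes. This scale understates changes of low genes, so ratios of mean FPKM stand beside it. The fit and the read recovery were tested on simulated data. Alternatives were pseudocounts of 0.1 and 0.01, no filter and a filter of 5 FPKM, quantile and median-of-ratios scaling, no trend, limma voom on recovered reads, the replicate number as a block, and leaving out each library. All tested members are named; those called, and the most abundant of each kind, are given by library, and up to 4 genes with the smallest p are named from each other list that is not a marker list, except 1 gene that is not reported here. Members and lists were chosen with earlier results of these data known. Promoter windows are from RefSeq (GRCm38.p6) and exon overlaps from GENCODE M21.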

Additional observations from a re-analysis of the deposited data

Results flagged for a closer look

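Among the 64 groups of 4 libraries formed by the 32 tested genes and 2 treatments, 5 held a library set apart from the other 3 by a gap above Dixon's 95% critical value, where chance alone would give about 1 in 20 groups. All 5 were in the vehicle group. Vehicle library 1 was lowest for Ctss (46.77 FPKM, against 52.45 to 53.40 in the others) and for Atp6v1a (7.840 against 9.191 to 9.449), and highest for Atp6v0b (108.3 against 107.4 to 107.5). Vehicle library 2 was highest for Ctsl (78.34 against 74.56 to 75.18) and for Atp6v1f (132.2 against 110.5 to 113.5). Ctss was the only one of these genes that passed the threshold between groups. Without vehicle library 1 it still passed.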

How the results depend on the processing

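Over 17 alternatives the count of all genes called stayed within 1.5 times of 2112, from 1693 to 2575. For single members, 530 of 543 gene and setting pairs kept direction and side of the threshold, 10 lost a call, 3 gained one and none changed direction after a call. The count of cathepsins that rose was 2, and 1 with the replicate block. The count of cathepsins that fell was 2; it was 1 with no filter on low values and 3 with limma voom. The count of proton pump genes that rose was 1; it was 0 with no filter, where more genes are tested (3 at an unadjusted p below 0.05), and 2 with quantile normalization and with limma voom. Leaving out each library in turn gave 1 to 3 members higher, 1 to 2 cathepsins higher and 0 to 1 proton pump genes higher, with 2 to 3 pump genes higher at an unadjusted p below 0.05 where the count was 0; fewer samples enter those fits. The full fit had 3 members higher and 3 lower; without vehicle library 1 only 1 was higher, and members lower stayed at 3 without each library.

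The replicate numbers in the titles do not pair the libraries: deviations of same-numbered libraries from their group means correlated at -0.055, -0.039, 0.014 and -0.009 over 11496 genes. With the replicate block, 1764 genes were called in place of 2112, 2 members were higher and 3 lower, and among members Ctsc lost its call. Not every library correlated best with its own number. Members with few reads, such as Ctsw and Atp6v0d2, are limited by depth.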

Other observations

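The deposited table annotates 103 further genes to the KEGG pathway Lysosome, of which 90 were tested. Of these 6 rose and 9 fell with DAPA (16.7%, against 18.4% of all genes tested), with summed FPKM of 2250.9 to 2262.3 in vehicle and 2212.4 to 2258.7 in DAPA libraries. Among those not described above, Napsa, an aspartic protease of the cathepsin D fold, fell from 1.64 ± 0.327 to 1.06 ± 0.247 FPKM, and the adaptor subunit gene Ap1g2 from 3.45 ± 0.297 to 2.74 ± 0.163 (limma adjusted p = 0.029 and 0.02); both were singled out after their values were seen.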
